A study of Mus musculus with 64 samples.

Results

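The light-dark cycle was followed here in microglia, the resident macrophages of the brain, from the frontal cortex of adult male C57BL6/N mice. Total RNA was sequenced from CD11b-positive cells, and the 16 libraries described are the control groups of a series of 64 libraries: 8 labelled Day and 8 labelled Night. Each phase held 4 libraries of a condition labelled Ctr0 and 4 of a condition labelled Ctr1. What separates these conditions was not given in the sources used here, and they entered every fit as a term. Apart from these condition labels, whose meaning is unknown, no genotype, allele or treatment label separates these 16 libraries. According to the study's methods the animals used for microglia lived under a reversed cycle in which the lights were off during the daytime hours. The label Day is therefore taken as the dark phase, when mice are active, and Night as the light phase, when mice mostly rest. The study's text gives the collection times as ZT4, in the light, and ZT16, in the dark (hours after lights on), which under this reading are Night and Day. The labels themselves give neither the lighting nor the hour. The cells were released mechanically in the cold, passed through a density step and enriched with magnetic beads against CD11b, a surface protein that border macrophages, monocytes and neutrophils also carry. Whether a library came from 1 animal or several, and which libraries came from separate animals, was not given, so p-values measure the spread between these libraries.

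Circadian time is kept in most cells by a loop of transcription factors. Arntl (BMAL1) and Clock bind E-boxes and switch on the period and cryptochrome genes, whose proteins then repress them. In a second loop the receptors REV-ERBα (Nr1d1) and REV-ERBβ (Nr1d2) repress Arntl, while the ROR receptors activate it. Output factors such as Dbp, Tef and Hlf pass the rhythm on to other genes. In mouse tissues Nr1d1 transcripts are known to peak in the light phase. Body temperature, feeding and glucocorticoid hormone also follow the cycle.

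The phase labels separated the libraries in many genes. Of 15715 genes that passed the filter on low counts, 3533 (22.5%) differed between Day and Night at an adjusted p under 0.05 (edgeR's quasi-likelihood test, Benjamini-Hochberg adjustment). Of all genes tested, 1946 (12.4%) were higher and 1587 (10.1%) lower in Day, and the median log2 change over all genes was 0.00. In 484 genes (3.08%) the 8 Day and the 8 Night libraries did not overlap. Changes are given below as the log2 of Day over Night with its standard error (SE), and levels as counts per 1000000 (CPM) after scaling. The split between directions rested on the scaling: with library totals alone 188 genes were higher and 1689 lower. Scaled to a list of homeostatic microglia markers, chosen after seeing the data, 114 genes were higher and 6128 lower and the median over all genes was −0.29. Without the filter on low counts 1217 were higher and 1579 lower.

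**Figure D1:**
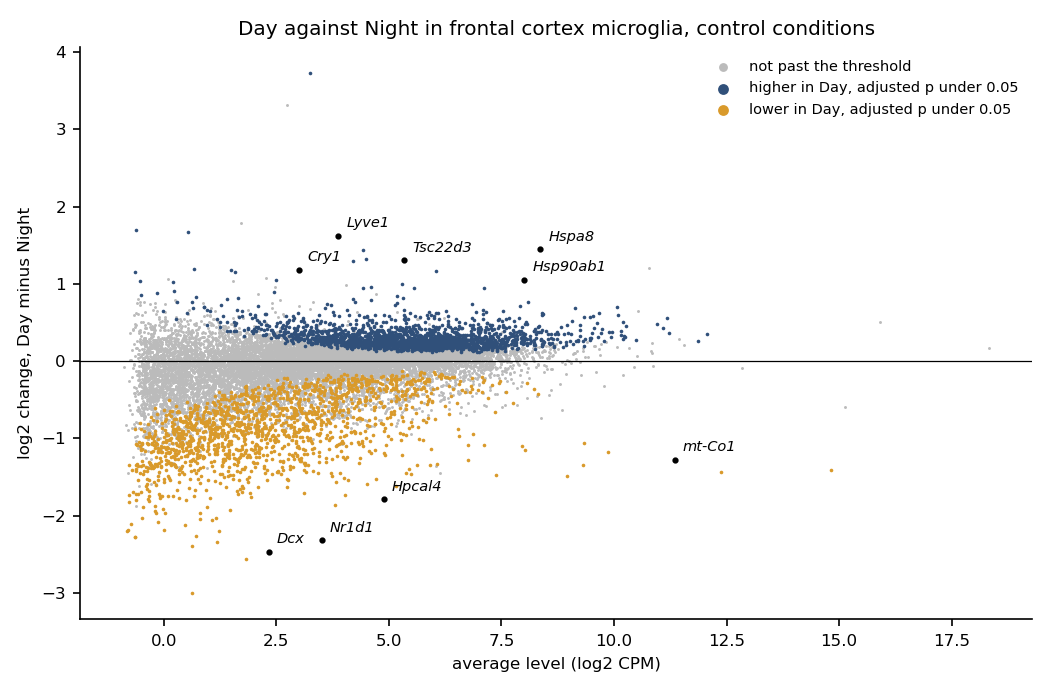
Each point is 1 of the 15715 genes tested; the horizontal axis is the average level (log2 CPM) over the 16 libraries and the vertical axis the log2 change, Day minus Night. Blue (higher in Day) and orange (lower) points passed an adjusted p of 0.05, and black labelled points are genes described in the text, with Hspa8 and Cry1 above the zero line and Nr1d1 and Dcx below it.

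Libraries held 10.2 to 26.3 M counts (1 M is 1000000 counts), on average 14.1 ± 4.52 M in Day and 16.1 ± 4.58 M in Night (SD, n = 8 each), and a count of 3, the floor used here, equals 0.114 to 0.295 CPM. The difference in total was within the spread (exact permutation test, two-sided, p = 0.394), but without Day Ctr0 replicate 1, the deepest Day library, it was −3.55 M (p = 0.0351). Gm26917, a gene model known only by a number, alone took 19.2% to 51.3% of the counts. The highest share was in Day Ctr0 replicate 1, where 9.76 M of 24.5 M counts lay outside the genes over 1% of counts. The mitochondrial ribosomal RNA mt-Rnr2 took 0.814% to 2.21% in Day and 2.80% to 8.11% in Night (exact permutation test, two-sided, p = 0.000155). Homeostatic microglia markers summed to 24862 to 33590 CPM in Day and 18130 to 25208 CPM in Night. Ddx3y, on the Y chromosome, was at 43.8 CPM or more in every library and Xist at 0.318 CPM or less, as the label male implies. Ctr0 and Ctr1 taken alone called 78 and 618 genes, and a difference between them in the Day-Night change was called in 0 of 15715 genes by edgeR, with 381 at an unadjusted p under 0.05, and in 1, Gm25911, by DESeq2. Without Day Ctr0 replicate 1 edgeR called 0 of 15934, with 1534 at an unadjusted p under 0.05.

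Clock genes moved in both directions. Of 27 clock genes tested, of 28 listed, 13 passed the test, where 22.5% of all genes did, 6 higher and 7 lower in Day. The largest change belonged to the REV-ERB receptor gene Nr1d1 (chr11:98767932-98775333, minus strand, GRCm38). Nr1d1 ranged from 2.14 to 5.92 CPM (median 2.97) in Day libraries and from 9.2 to 33.7 CPM (median 18) in Night libraries, so that every Night library lay above every Day library (log2 change −2.32 ± 0.26 (SE), adjusted p = 8.26e-05). Its paralog Nr1d2 stood at 42.9 to 72.8 CPM (median 50.2) in Day and 46.9 to 67.6 CPM (median 55.3) in Night, ranges that overlap (log2 change −0.08 ± 0.09, adjusted p = 0.565). The ROR receptor genes were lower in Day as well, Rorb with a log2 change of −1.46 ± 0.41 (adjusted p = 0.0196) and Rora with −0.30 ± 0.11 (adjusted p = 0.0482). Both calls were fragile: that of Rorb was lost without Night Ctr1 replicate 2 (log2 change −1.27, adjusted p = 0.0538), and that of Rora in 12 of the 16 fits that left out 1 library. Rorb reached 23.2 CPM in Night Ctr0 replicate 4. That library also had the highest summed astrocyte and immature neuron markers, but not the highest summed mature neuron markers. The call of Rorb held without that library, and was lost with an astrocyte marker score as a covariate. Whether that library's makeup has a part in the change of Rorb was not tested.

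The repressors of the main loop lay on the other side. Cry1, a cryptochrome (chr10:85131700-85185064, minus strand), ranged from 8.93 to 13 CPM (median 10.9) in Day and from 3.26 to 6.26 CPM (median 4.88) in Night, with no overlap (log2 change 1.18 ± 0.12 (SE), adjusted p = 3.24e-05). Per2 ranged from 19.2 to 36.8 CPM (median 22.8) in Day and from 8.36 to 15.3 CPM (median 9.13) in Night, again with every Day library above every Night library (log2 change 1.30 ± 0.16, adjusted p = 0.000152). Per3 overlapped between the phases but was higher in Day, with 51.1 to 75.7 CPM (median 58.7) against 32.5 to 52.2 CPM (median 39.5) (log2 change 0.56 ± 0.11, adjusted p = 0.00298). The other members of that group did not pass the test. Per1, which light and glucocorticoids also induce, spread from 31.4 to 82.6 CPM (median 50.6) in Day and 22.8 to 79.1 CPM (median 35.6) in Night (log2 change 0.35 ± 0.27, adjusted p = 0.365). Per3 was not called with microglia markers as the scale (0.25, adjusted p = 0.208). Cry2 changed by 0.16 ± 0.13, Ciart by −0.46 ± 0.26 and Timeless by −0.51 ± 0.27, with adjusted p-values of 0.373, 0.21 and 0.186.

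The activator Arntl was lower in Day, from 9.02 to 15.5 CPM (median 13.3) against 14.1 to 23.9 CPM (median 16.8) in Night (log2 change −0.48 ± 0.12 (SE), adjusted p = 0.0104). Its partners did not pass the test: Clock differed by 0.08 ± 0.05, Npas2 by −0.47 ± 0.23 and Arntl2 by −0.51 ± 0.31 (adjusted p = 0.198, 0.152 and 0.255). Among the output factors Dbp was lower in Day, at 7.74 to 13.9 CPM (median 10.4) against 11.5 to 20.6 CPM (median 15.4) (log2 change −0.55 ± 0.12, adjusted p = 0.0049), while Tef was higher with the scaling used here, at 79.5 to 102 CPM (median 86.5) against 63.6 to 80.6 CPM (median 72.8) (log2 change 0.29 ± 0.06, adjusted p = 0.00464). The fitted changes of Hlf (0.14 ± 0.16) and of Nfil3, which opposes the output factors, (0.21 ± 0.17) were within error (adjusted p = 0.548 and 0.403). Of the paralogous repressors Bhlhe40 and Bhlhe41 the first was lower (log2 change −0.64 ± 0.19, adjusted p = 0.025) and the second higher in Day (log2 change 0.31 ± 0.08, adjusted p = 0.00985). The call of Bhlhe40 was lost without Night Ctr1 replicate 2 (−0.52, adjusted p = 0.0563) or without Night Ctr0 replicate 4 (−0.59, adjusted p = 0.0504). Of the enzymes that mark clock proteins for turnover, the kinase gene Csnk1d was higher (log2 change 0.26 ± 0.05, adjusted p = 0.00205) and the ubiquitin ligase gene Btrc lower in Day (log2 change −0.23 ± 0.06, adjusted p = 0.017), the latter not without Day Ctr0 replicate 1 (−0.18, adjusted p = 0.052). With microglia markers as the scale Tef was at −0.02, Csnk1d at −0.03 and Bhlhe41 at 0.02, adjusted p = 0.841. Tef, Csnk1d, Bhlhe41 and Btrc were not called with library totals alone. Csnk1e, Fbxl21 and Gsk3b were not called, with log2 changes of 0.12, −0.10 and 0.10.

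**Figure D2:**
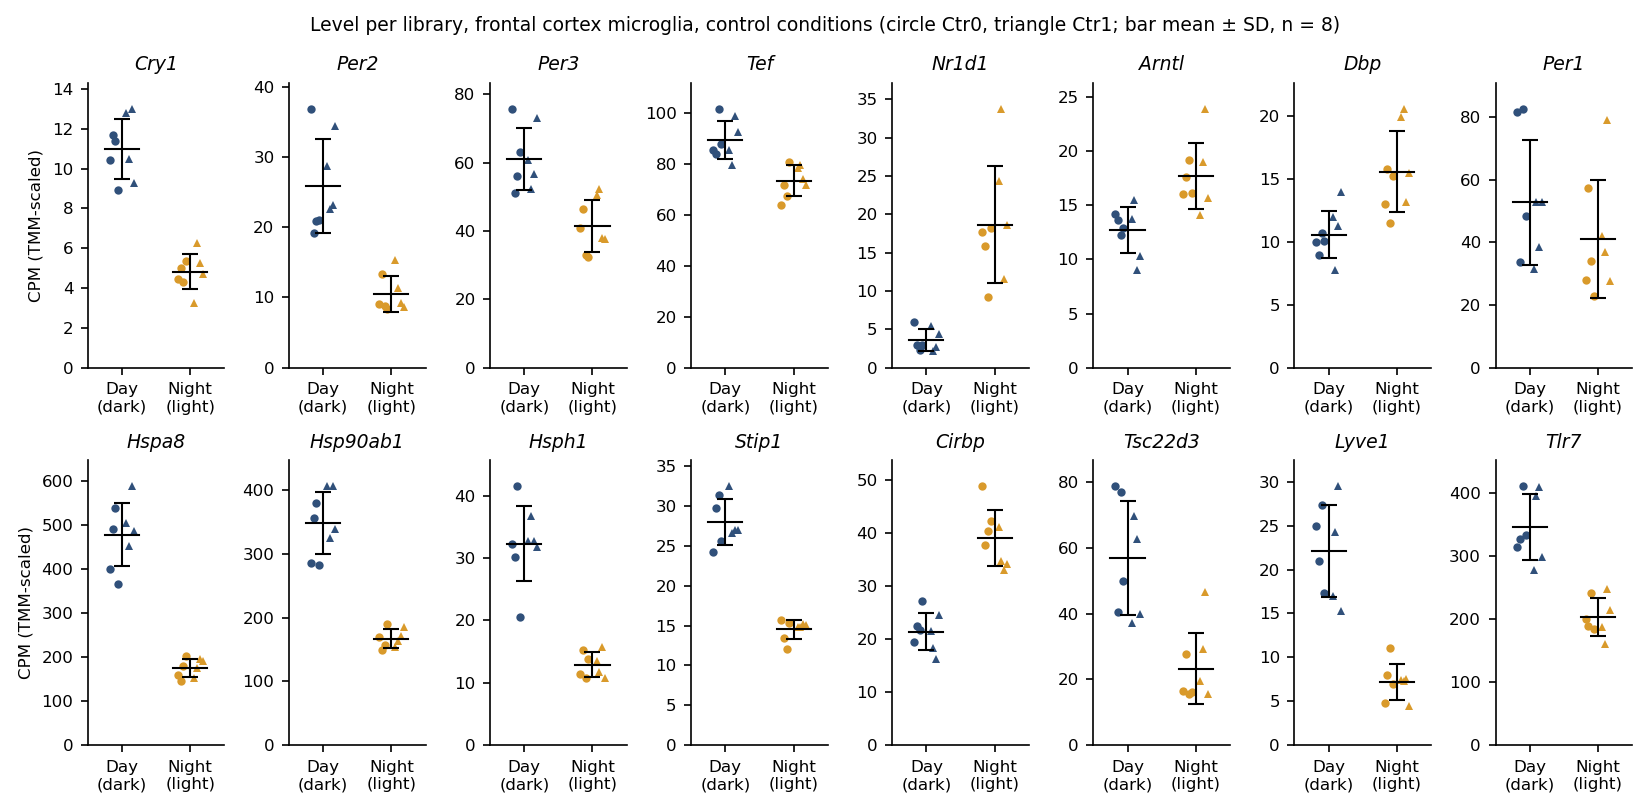
Levels in CPM (linear axes from 0) of named genes in the 8 Day and the 8 Night libraries, 1 point per library, with circles for Ctr0, triangles for Ctr1 and bars for the mean ± SD of each phase. Day and Night points do not overlap for Nr1d1, Cry1, Per2, Hspa8 and Lyve1.

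Promoter sequence was read for the clock, heat shock and glucocorticoid-responsive lists, to show what stands at their starts. Windows of 300 bases, from 250 before to 50 after each RefSeq start (GRCm38.p6), were searched on both strands for an E-box (CACGTG, in 7.15% of 32851 windows), a D-box (TTANGTAA, 2.32%), a ROR element (AANTNGGTCA, 0.606%), a heat shock element (GAANNTTCNNGAA, 0.603%) and a glucocorticoid response element (GNACANNNTGTNC, 0.475%). Counted by gene, over 27025 genes with a window, the shares were 8.09%, 2.72%, 0.714%, 0.662% and 0.537% in that order. Of the 27 clock genes 22 had a window. An E-box stood in 5 of them (Bhlhe41, Ciart, Cry1, Per1 and Tef), a D-box in 3 (Per3, Rorb and Timeless) and a ROR element in 1 (Arntl). Of the 22 heat shock genes tested 17 had a window, and 4 held the heat shock element: Hsph1, Chordc1, Hspe1 and Hspd1. An E-box stood in 3 of the 17 (Hsf2, Hspd1 and Hsph1). The windows of Hspe1 and Hspd1 overlap on opposite strands and share 1 stretch. Of the 24 glucocorticoid-responsive genes 18 had a window and 3 (Map3k6, Mt1 and Sgk1) the response element. In that list 3 genes (Dusp1, Fkbp5 and Sgk1) held an E-box and 1 (Sult1a1) a D-box. Shown are a pair of clock genes that moved in opposite directions and 3 heat shock genes, 5′ to 3′ on the gene's strand, with the matches in capitals. The match in Cry1 (chr10:85185005-85185304, minus strand) is an E-box at bases 191 to 196 of the window, and that in Arntl (chr7:113207261-113207560, plus strand) a ROR element at bases 278 to 287. Hsph1 (chr5:149636287-149636586, minus strand) has an E-box at bases 253 to 258 and a heat shock element at bases 287 to 299. Hspe1 (chr1:55087898-55088197, plus strand) has heat shock elements from base 162 and base 167 that run into each other, and Chordc1 (chr9:18292017-18292316, plus strand) has them from bases 247, 252 and 257.
Cry1: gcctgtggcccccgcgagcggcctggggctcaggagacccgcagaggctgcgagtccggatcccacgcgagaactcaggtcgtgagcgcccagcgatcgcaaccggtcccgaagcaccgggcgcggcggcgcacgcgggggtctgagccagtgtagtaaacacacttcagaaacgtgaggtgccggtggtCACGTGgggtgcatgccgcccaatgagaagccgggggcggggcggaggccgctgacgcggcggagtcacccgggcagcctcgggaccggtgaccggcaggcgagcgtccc
Arntl: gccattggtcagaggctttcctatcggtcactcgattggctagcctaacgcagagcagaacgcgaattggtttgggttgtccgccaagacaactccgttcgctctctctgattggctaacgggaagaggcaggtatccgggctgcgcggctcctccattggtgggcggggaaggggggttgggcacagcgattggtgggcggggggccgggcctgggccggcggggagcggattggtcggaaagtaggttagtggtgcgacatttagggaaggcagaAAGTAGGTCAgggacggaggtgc
Hsph1: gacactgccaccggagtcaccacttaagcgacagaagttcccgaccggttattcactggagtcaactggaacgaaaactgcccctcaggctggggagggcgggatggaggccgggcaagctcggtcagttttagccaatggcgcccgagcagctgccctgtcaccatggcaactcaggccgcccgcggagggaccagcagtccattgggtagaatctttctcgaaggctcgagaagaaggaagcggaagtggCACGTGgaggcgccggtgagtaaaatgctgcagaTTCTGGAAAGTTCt
Hspe1: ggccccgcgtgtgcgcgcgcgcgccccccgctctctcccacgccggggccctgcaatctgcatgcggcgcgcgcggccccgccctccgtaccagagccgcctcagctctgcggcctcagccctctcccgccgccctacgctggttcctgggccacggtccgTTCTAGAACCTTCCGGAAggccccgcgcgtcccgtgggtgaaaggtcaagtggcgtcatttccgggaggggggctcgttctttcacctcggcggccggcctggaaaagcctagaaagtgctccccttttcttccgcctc
Chordc1: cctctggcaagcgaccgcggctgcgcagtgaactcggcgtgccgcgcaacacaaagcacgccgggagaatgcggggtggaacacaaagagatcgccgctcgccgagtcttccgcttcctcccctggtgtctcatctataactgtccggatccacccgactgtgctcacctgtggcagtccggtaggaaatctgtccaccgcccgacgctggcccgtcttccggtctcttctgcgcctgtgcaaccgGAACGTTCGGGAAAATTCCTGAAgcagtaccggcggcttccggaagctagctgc
A match describes letters in these windows and is no evidence of binding.

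Most chaperone genes were higher in Day. Of 22 heat shock and cold-inducible genes tested, 17 were higher and 1 lower in Day, against 12.4% and 10.1% of all genes. Their median log2 change was 0.75 against 0.00 over all genes. In 14 the phases did not overlap, against 3.08% of all genes. Hspa8, the constitutive HSP70 that folds newly made proteins and uncoats vesicles (chr9:40800984-40810087, plus strand), ranged from 366 to 588 CPM (median 489) in Day and 146 to 203 CPM (median 177) in Night (log2 change 1.45 ± 0.09 (SE), adjusted p = 4.92e-07). Hsp90ab1, the constitutive HSP90, ranged from 283 to 407 CPM (median 348) in Day and 149 to 189.8 CPM (median 167) in Night (log2 change 1.05 ± 0.08, adjusted p = 2.11e-06). In both genes the lowest Day library was above the highest Night library. The same held for Hsph1, a nucleotide exchange factor of HSP70, at 20.5 to 41.5 CPM (median 32.4) against 10.7 to 15.7 CPM (median 12.6) (log2 change 1.32 ± 0.12, adjusted p = 1.23e-05). Stip1, which passes clients from HSP70 to HSP90, stood at 24.2 to 32.5 CPM (median 27) against 12.1 to 15.6 CPM (median 14.9) (log2 change 0.95 ± 0.07, adjusted p = 2.11e-06). Fkbp4, an HSP90 partner in steroid receptor complexes, stood at 34.6 to 54.3 CPM (median 47.7) against 22.9 to 28.3 CPM (median 26.5) (log2 change 0.84 ± 0.07, adjusted p = 8.55e-06). The 4 genes whose windows hold the heat shock element were higher in Day, as were 17 of all 22 members. Beside Hsph1 they were Chordc1 (0.63 ± 0.10), Hspe1 (0.54 ± 0.09) and Hspd1 (0.44 ± 0.05), the last 2 being the mitochondrial chaperonin. Whether members with and without the element differed was not tested. Hspa1b, the inducible HSP70, was at 0.624 to 3.77 CPM (median 1.99) in Day and 0.307 to 1.1 CPM (median 0.564) in Night (log2 change 1.68 ± 0.30, adjusted p = 0.00162), and can share reads with its near-identical copy Hspa1a, so the level of either is uncertain. The single member that fell was Cirbp, a gene known to be induced by mild cold: it ranged from 16.2 to 27.1 CPM (median 21.6) in Day and 32.9 to 48.8 CPM (median 39) in Night, with no overlap (log2 change −0.86 ± 0.09, adjusted p = 4.71e-05). Hspe1, Hspd1, Chordc1 and Cirbp were named after their values were seen. Scaled to homeostatic microglia markers the list's median was 0.45, with 13 higher and 2 lower, and Hspe1 (0.25) and Hspd1 (0.14) were not called.

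A list of genes known to respond to cell dissociation, which shares Hspa8, Hspa1a and Hspa1b with the chaperones, had 9 of 16 members higher and none lower in Day, and its sum was 705 to 1030 CPM in Day and 458 to 545 CPM in Night, without overlap. Its part in the chaperone changes was not tested. Of 25 immediate early genes, which cells induce within minutes of a stimulus, 6 were higher and none lower, around a median of 0.02. Over all genes 22.5% were called, 12.4% higher and 10.1% lower. Zfp36, which destabilizes cytokine transcripts, was at 28.3 to 32.9 CPM (median 30.2) in Day and 20.1 to 26.4 CPM (median 22.9) in Night (log2 change 0.40 ± 0.06 (SE), adjusted p = 0.000448), with no overlap. Fosl2 (0.37 ± 0.06), Klf6 (0.30 ± 0.06) and Btg2 (0.30 ± 0.08) rose by similar amounts. The direction of this list rested on the scaling: with microglia markers as the scale its median was −0.30, 7 members were lower and none higher, and Zfp36 (0.10), Fosl2 (0.07), Btg2 (0.00) and Klf6 (−0.00) were not called.

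Genes that glucocorticoid hormone is known to induce moved in both directions, with log2 changes from −1.49 to 1.43. Of 24 tested, 8 were higher and 3 lower in Day, with a median log2 change of 0.24, where 12.4% of all genes were higher and 10.1% lower. Zbtb16, a transcription factor gene, ranged from 15.4 to 56.8 CPM (median 25.9) in Day and 5.84 to 17.3 CPM (median 11.9) in Night (log2 change 1.43 ± 0.31 (SE), adjusted p = 0.00479). Tsc22d3, which encodes the anti-inflammatory protein GILZ, was at 37.1 to 78.9 CPM (median 56.4) in Day and 15.4 to 46.6 CPM (median 17.9) in Night (log2 change 1.31 ± 0.25, adjusted p = 0.00236). Fkbp5, a co-chaperone that dampens the glucocorticoid receptor, was at 46.5 to 156 CPM (median 85.8) in Day and 30.5 to 63.8 CPM (median 37.4) in Night (log2 change 1.17 ± 0.22, adjusted p = 0.0021). Of the 8 Day libraries 6 lay above every Night library for Zbtb16 and Fkbp5 and 5 for Tsc22d3. Night Ctr1 replicate 3 was the highest Night library for Tsc22d3 and Fkbp5. Sult1a1, a sulfotransferase gene, was also higher (log2 change 1.00 ± 0.15, adjusted p = 0.000562). Cebpd (0.57 ± 0.09) and Rhob (0.47 ± 0.08) rose less. The members that were lower, named after their values were seen, are also known to respond to fasting or metals: Pdk4, which limits glucose oxidation (−1.49 ± 0.39), Angptl4, an inhibitor of lipoprotein lipase (−1.28 ± 0.33), and Mt2, a metallothionein (−1.16 ± 0.27), none above 7.29 CPM in any library. Between 10 and 16 members passed when 1 library was left out, 16 without Night Ctr1 replicate 3. Scaled to microglia markers 5 were higher and 7 lower around a median of −0.06, and Rhob (0.18) was not called.

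**Figure D3:**
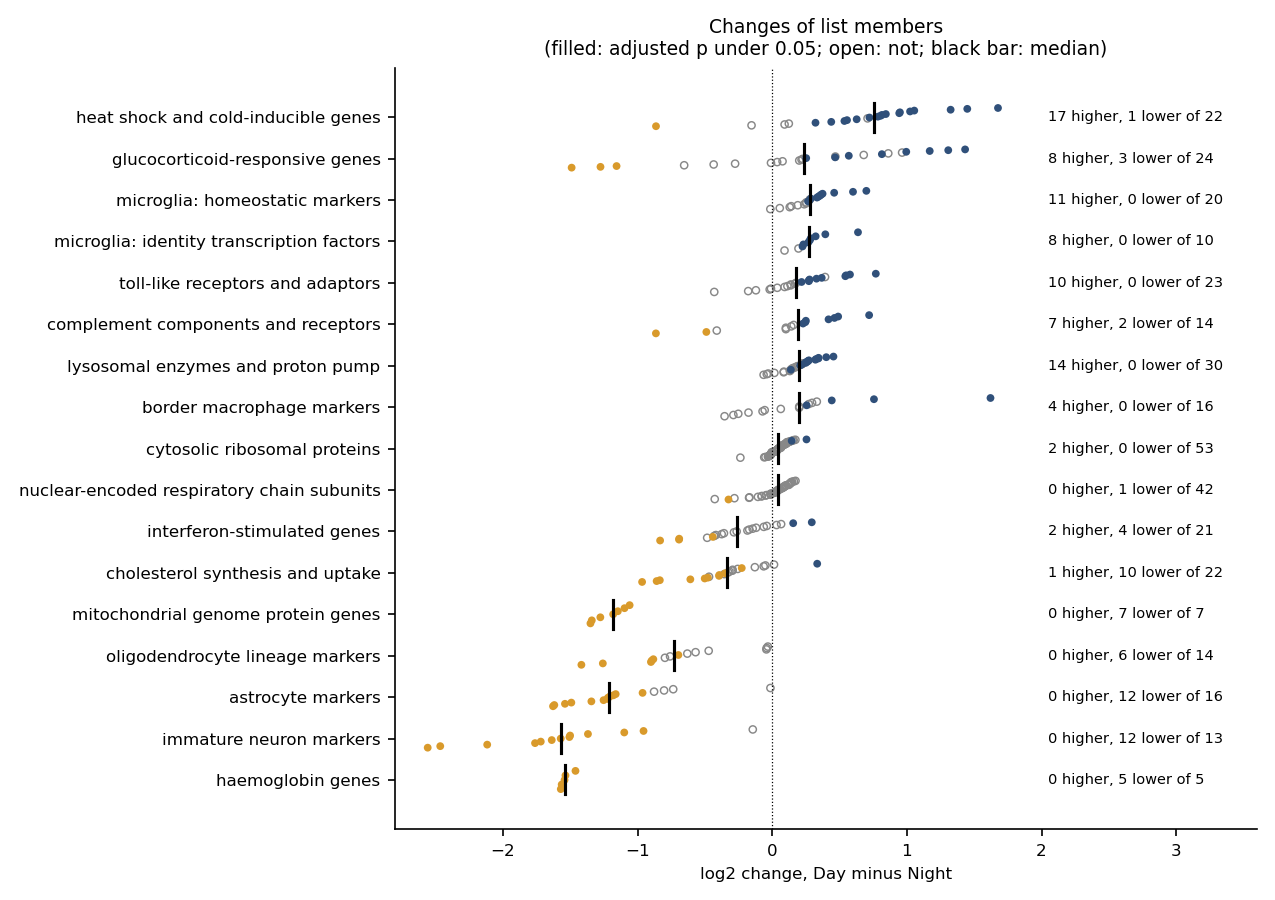
Log2 changes, Day minus Night, of the members of 17 gene lists; each point is 1 gene, filled where its adjusted p was under 0.05, and the black bar is the median of the list. Heat shock genes lie mostly above zero (17 of 22 higher) and immature neuron markers below it (12 of 13 lower).

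Many genes that define microglia were higher in Day. Of 20 homeostatic markers 11 were higher and none lower (median 0.28), and of 10 transcription factors of microglial identity 8 were higher and none lower (median 0.27). The shares over all genes were 12.4% higher and 10.1% lower. Tmem119, a surface marker of microglia, ranged from 1084 to 1639 CPM (median 1322) in Day and 656 to 1005 CPM (median 823) in Night (log2 change 0.70 ± 0.10 (SE), adjusted p = 0.00026). Selplg, which encodes a selectin ligand, ranged from 1124 to 1469.5 CPM (median 1326) in Day and 709 to 1002 CPM (median 875) in Night (log2 change 0.60 ± 0.08, adjusted p = 0.000168). The phases did not overlap in either gene, and the same was true of Sparc (0.37 ± 0.08), a matrix protein. The fructose transporter Slc2a5 was higher by 0.46 ± 0.09. Among the factors Cebpa led, with 111 to 179 CPM (median 150.1) in Day against 77.9 to 115 CPM (median 94.8) in Night (log2 change 0.64 ± 0.09, adjusted p = 0.00043), with smaller changes of Maf (0.29 ± 0.06) and Spi1 (0.27 ± 0.06), both just below zero with microglia markers as the scale. These are shares of a library, and markers of several other cell types were lower in Day and some border macrophage markers higher, as described below. Their part in the microglia markers' rise was not tested. Scaled to the homeostatic list itself, the median of the factors was −0.02 and Sparc was at 0.08, adjusted p = 0.122. With library totals alone 2 of the 20 homeostatic markers and 1 of the 10 factors were called higher, and none lower. Slc2a5, Sparc, Maf and Spi1 were not called with library totals. Leaving out 1 library gave 7 (without Day Ctr0 replicate 2) to 16 (without Day Ctr0 replicate 1) homeostatic markers called.

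Several receptors by which microglia sense pathogens and damage were higher too. Of 23 toll-like receptors and adaptors 10 were higher and none lower (median 0.18), where 12.4% of all genes were higher and 10.1% lower. Tlr7, an endosomal receptor for single-stranded RNA, ranged from 278 to 411 CPM (median 329.8) in Day and 160.4 to 248 CPM (median 194) in Night, with every Day library above every Night library (log2 change 0.77 ± 0.10 (SE), adjusted p = 0.000243). Cd14, a coreceptor for lipopolysaccharide, was higher (log2 change 0.58 ± 0.08, adjusted p = 0.000311). Tlr4, its signalling partner (0.54 ± 0.10), and Tlr13, a receptor for bacterial ribosomal RNA (0.55 ± 0.10), likewise showed no overlap. With microglia markers as the scale, Tlr7, Cd14, Tlr4 and Tlr13 were above zero, but the list's median was −0.11, with 4 members higher and 5 lower. Library totals alone gave 4 members higher and none lower.

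Of 14 complement genes 7 were higher and 2 lower (median 0.19), where 12.4% of all genes were higher and 10.1% lower. C5ar1, the receptor of the anaphylatoxin C5a, ranged from 35.4 to 54.4 CPM (median 45.4) in Day and 22.9 to 31.8 CPM (median 26.5) in Night, without overlap (log2 change 0.72 ± 0.09 (SE), adjusted p = 0.000195). The chains of C1q, which tags synapses and debris, moved together: C1qa by 0.49 ± 0.08, C1qc by 0.46 ± 0.07 and C1qb by 0.42 ± 0.09. The lower members, named after their values were seen, were C4b (−0.49 ± 0.17) and the inhibitor gene Serping1 (−0.86 ± 0.30), whose calls were lost in 11 and 10 of the 16 fits that left out 1 library. Between 6 and 9 members passed in those fits. Library totals alone gave 3 members higher and none lower. With microglia markers as the scale the list's median was −0.11. On that scale C1qa was at 0.19, adjusted p = 0.00752, and the calls of C1qc (0.16, adjusted p = 0.0802) and C1qb (0.12, adjusted p = 0.0517) were lost.

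Receptors and channels for nucleotides, adenosine and noradrenaline split evenly, 5 higher and 5 lower of 19, against 12.4% and 10.1% of all genes. Entpd1 (CD39), which degrades ATP, ranged from 562 to 831 CPM (median 688) in Day and 366 to 493 CPM (median 419.9) in Night, without overlap (log2 change 0.69 ± 0.08 (SE), adjusted p = 8.35e-05). The potassium channel genes Kcnj2 (0.59 ± 0.09) and Kcnk6 (0.56 ± 0.10) were higher as well. The lower members, named after their values were seen, were all at 14.4 CPM or less: Nt5e (−1.35 ± 0.27), which makes adenosine, the adenosine receptor genes Adora2a (−1.06 ± 0.22) and Adora1 (−0.98 ± 0.32), Adra1a (−0.79 ± 0.27) and Kcna3 (−0.44 ± 0.15). The calls of Adora1, Adra1a and Kcna3 were lost in 9, 12 and 11 of the 16 fits that left out 1 library.

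Of 30 lysosomal genes 14 were higher by small amounts and none lower, with a median of 0.20, where 12.4% of all genes were higher and 10.1% lower. Ctsd, a cathepsin, ranged from 1178 to 1731 CPM (median 1452) in Day and 858 to 1250.5 CPM (median 1031) in Night (log2 change 0.45 ± 0.09 (SE), adjusted p = 0.00312). Ctsc (0.40 ± 0.08), the progranulin gene Grn (0.34 ± 0.08) and Psap (0.33 ± 0.07), which activates lipid breakdown, followed. The group's calls rested on the scaling: with library totals alone none was called, and with microglia markers as the scale 1 was higher and 10 lower around a median of −0.10. Leaving out 1 library gave 9 (without Day Ctr0 replicate 2) to 20 (without Day Ctr0 replicate 1) calls. Autophagy genes showed 3 higher and 2 lower of 25, with 10 called without Day Ctr0 replicate 1 and 3 without Day Ctr0 replicate 3.

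Inflammatory genes did not move as a block. Of 18 markers of disease-associated microglia 4 were lower and 1, Ctsd, higher, where 10.1% of all genes were lower and 12.4% higher. Lpl, a lipoprotein lipase, ranged from 4.48 to 8.3 CPM (median 6.12) in Day and 7.34 to 16.8 CPM (median 11.6) in Night (log2 change −0.99 ± 0.14 (SE), adjusted p = 0.000419), and Axl, a receptor for dying cells, was lower (log2 change −0.82 ± 0.13, adjusted p = 0.000638). Spp1 (osteopontin) was lower (−1.63 ± 0.47), a call lost without Night Ctr0 replicate 2 (−1.02, adjusted p = 0.052), and so was Igf1 (−0.54 ± 0.18), a call lost in 9 of the 16 fits that left out 1 library. Leaving out 1 library gave 3 (without Night Ctr0 replicate 2) to 8 (without Day Ctr0 replicate 1) calls on this list. Of 14 NF-κB genes 3 were lower and 2 higher. Relb, of the non-canonical arm, ranged from 5.19 to 11.2 CPM (median 8.35) in Day and 11.8 to 13.9 CPM (median 12.6) in Night, without overlap (log2 change −0.59 ± 0.11, adjusted p = 0.00178). Bcl3 (−0.85 ± 0.27) and Nfkb2 (−0.18 ± 0.06) were also lower, calls lost in 8 and 12 of those 16 fits, and Nfkb1 (0.17 ± 0.04) and Rela (0.18 ± 0.05), of the canonical arm, were higher. Of 18 cytokine and chemokine genes Il6 (0.58 ± 0.17), Il1a (0.38 ± 0.13) and Tgfb1 (0.20 ± 0.07) were higher and none lower. The calls of Il1a and Tgfb1 were lost in 10 and 11 of those fits, and with microglia markers as the scale Nfkb1, Rela and Tgfb1 lay below zero and Il6 (0.30) and Il1a (0.08) were not called.

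Of 21 interferon-stimulated genes 4 were lower and 2 higher in Day, around a median of −0.26, where 10.1% of all genes were lower and 12.4% higher. Mx1, an antiviral GTPase, ranged from 3.44 to 6.49 CPM (median 4.38) in Day and 5.57 to 9.84 CPM (median 7.41) in Night (log2 change −0.69 ± 0.13 (SE), adjusted p = 0.00204). Rsad2 (−0.83 ± 0.19), Oasl2 (−0.69 ± 0.19) and Irf7 (−0.44 ± 0.15) were lower too, while Irf9 (0.16 ± 0.05) and Bst2 (0.29 ± 0.10) were higher. In the 16 fits that left out 1 library 3 (without Day Ctr1 replicate 3) to 7 (without Day Ctr0 replicate 4) members were called. The calls of Irf7, Irf9 and Bst2 were lost in 10, 7 and 10 of those fits, and Irf9 and Bst2 lay below zero with microglia markers as the scale. Of 16 genes of MHC presentation 3 were higher and 1 lower, where 22.5% of all genes were called. B2m, the light chain of class I, rose by 0.23 ± 0.08. That call was lost in 11 of those fits, and B2m lay below zero with microglia markers as the scale. Nlrc5, the activator of class I genes, was lower (−0.66 ± 0.14).

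Transcripts of the mitochondrial genome were lower in Day in every member tested. All 7 protein genes with enough counts passed the test, of 13 listed, with a median of −1.18, where 22.5% of all genes passed. The other 6, mt-Nd3, mt-Nd4l, mt-Co2, mt-Co3, mt-Atp6 and mt-Atp8, had no count in any of the 16 libraries. mt-Co1, a subunit of cytochrome oxidase, ranged from 1279 to 1757 CPM (median 1498) in Day and 2300.1 to 6367 CPM (median 3139) in Night (log2 change −1.28 ± 0.19 (SE), adjusted p = 0.000468). mt-Nd1 ranged from 258 to 425 CPM (median 360.2) in Day and 569 to 1517 CPM (median 820.2) in Night (log2 change −1.35 ± 0.19, adjusted p = 0.000321). The phases did not overlap in either, nor in mt-Nd6 (−1.34 ± 0.15), which lies on the other strand, or mt-Cytb (−1.18 ± 0.17). The genes can share reads with nuclear copies, and no treatment of such reads was given. Respiratory chain subunits encoded in the nucleus did not follow: 1 of 42, Ndufc1, was lower and none higher. Of 53 ribosomal protein genes 2, Rps9 and Rpl18, were higher.

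Of 22 genes of cholesterol synthesis and uptake 10 were lower and 1 higher in Day, with a median of −0.34. The shares over all genes were 10.1% lower and 12.4% higher. Mvk, of the early steps of synthesis, ranged from 3.87 to 5.76 CPM (median 4.64) in Day and 5.91 to 10 CPM (median 7.1) in Night, without overlap (log2 change −0.61 ± 0.11 (SE), adjusted p = 0.00176). Sqle (−0.83 ± 0.17) and Lss (−0.39 ± 0.11) were lower as well, and Ebp, named after its value was seen, was higher (0.33 ± 0.11), a call lost in 10 of the 16 fits that left out 1 library and with microglia markers as the scale (0.04). Only 4 members passed without Night Ctr1 replicate 2. Glia other than microglia also express this pathway, and astrocyte markers were lower in Day. Their part in this change was not tested. Of 22 genes of glucose uptake and glycolysis 3 were higher and 2 lower. Hk2, which traps glucose, ranged from 187 to 225 CPM (median 203) in Day and 115 to 164 CPM (median 143) in Night, without overlap (log2 change 0.53 ± 0.07, adjusted p = 0.000152), the glucose transporter Slc2a3 was higher by 0.53 ± 0.12 (0.25 and not called with microglia markers as the scale), and Pfkp was lower (−0.76 ± 0.20).

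Of 17 antioxidant genes under NRF2, 5 were higher and 1 lower, where 12.4% of all genes were higher and 10.1% lower. Nfe2l2, which encodes NRF2, ranged from 87.1 to 110.4 CPM (median 102) in Day and 68.3 to 81.6 CPM (median 75.3) in Night, without overlap (log2 change 0.42 ± 0.05 (SE), adjusted p = 0.000168), and G6pdx, which supplies NADPH, was higher by 0.50 ± 0.08. Gstm1, named after its value was seen and also an astrocyte transcript, was lower (−0.94 ± 0.27), a call lost without Night Ctr1 replicate 2 (−0.81, adjusted p = 0.0565). Of 23 cell cycle genes 2 were higher and 1 lower. The lower one, Ccnd2, ranged from 5.95 to 12.3 CPM (median 9.39) in Day and 14.2 to 33.3 CPM (median 22) in Night, without overlap (log2 change −1.27 ± 0.19, adjusted p = 0.000554). Its relative Ccnd1 was higher by 0.33 ± 0.10, a call lost in 8 of the 16 fits that left out 1 library. With microglia markers as the scale Nfe2l2 (0.13, adjusted p = 0.152) and Ccnd1 (0.02, adjusted p = 0.847) were not called, and G6pdx was at 0.21, adjusted p = 0.0261.

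Border macrophages, which line vessels and meninges, also carry CD11b. Of their 16 markers 4 were called, all higher in Day, where 22.5% of all genes were called and 12.4% were higher. The log2 change was positive in 10 members and negative in 6, the lowest −0.35. Lyve1, a hyaluronan receptor, ranged from 15.3 to 29.5 CPM (median 22.6) in Day and 4.41 to 11 CPM (median 7.31) in Night, with no overlap (log2 change 1.62 ± 0.18 (SE), adjusted p = 6.46e-05). Cd163, a haemoglobin scavenger receptor, ranged from 29.5 to 63.4 CPM (median 47.5) in Day and 18.9 to 34.8 CPM (median 27.3) in Night (log2 change 0.76 ± 0.17, adjusted p = 0.00566). F13a1 (0.44 ± 0.14) and Stab1 (0.26 ± 0.08) were higher in the same test, calls lost in 5 and 9 of the 16 fits that left out 1 library, and with microglia markers as the scale Stab1 lay below zero and Cd163 (0.45, adjusted p = 0.0756) and F13a1 (0.12) were not called. The summed level of the list overlapped, 1079.7 to 1654 CPM in Day and 996 to 1346 CPM in Night. In bulk RNA, fewer cells of a type and less RNA per cell cannot be told apart, here and for every marker that follows.

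Markers of cells that a CD11b selection should leave out differed in how many were lower in Day, and of their summed levels only that of immature neurons did not overlap between the phases. Of immature neuron markers 12 of 13 were lower and none higher (median −1.57), where 10.1% of all genes were lower. Their sum was 25.1 to 37.6 CPM in Day and 43.3 to 117 CPM in Night. Dcx, a microtubule protein of migrating neuroblasts, ranged from 0.645 to 2.94 CPM (median 1.49) in Day and 3.62 to 14.9 CPM (median 7.16) in Night (log2 change −2.47 ± 0.34 (SE), adjusted p = 0.00026). Dlx6os1, read from the strand opposite a homeobox gene of interneurons, ranged from 0.459 to 1.73 CPM (median 0.846) in Day and 3.07 to 9.3 CPM (median 4.45) in Night (log2 change −2.56 ± 0.35, adjusted p = 0.000291), and is uncertain because the strand setting of the counting was not given. Gad2, which makes the transmitter GABA, ranged from 1.31 to 2.35 CPM (median 1.75) in Day and 4.2 to 6.65 CPM (median 4.8) in Night (log2 change −1.51 ± 0.14, adjusted p = 1.23e-05). No Day library reached the lowest Night library in any of these 3 genes. Dpysl3 was lower as well (−1.76 ± 0.27). Of 17 markers of mature neurons 5 were lower and none higher, among them Hpcal4 (−1.79 ± 0.45), Gad1 (−1.40 ± 0.24) and Snap25 (−0.92 ± 0.27, lost without Night Ctr1 replicate 2 at −0.83, adjusted p = 0.056). Without 1 library 2 (Night Ctr1 replicate 2) to 8 (Day Ctr0 replicate 1) were called. The sum of that list overlapped, 1032 to 4403 CPM in Day and 1345 to 3313 CPM in Night.

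Astrocyte markers were lower in 12 of 16, with none higher (median −1.21), and summed to 376 to 585 CPM in Day and 429.9 to 2854 CPM in Night. The water channel gene Aqp4 ranged from 1.64 to 5.19 CPM (median 3.14) in Day and 2.19 to 27.8 CPM (median 10.1) in Night (log2 change −1.63 ± 0.43 (SE), adjusted p = 0.0143). Aldoc, a glycolytic enzyme of astrocytes, ranged from 10.8 to 24.2 CPM (median 16.5) in Day and 15.7 to 167 CPM (median 43.5) in Night (log2 change −1.62 ± 0.42, adjusted p = 0.0128). The phases overlapped in both, and Night Ctr0 replicate 4 was the highest library. Aldh1l1 (−1.18 ± 0.26), Atp1b2 (−1.16 ± 0.26), Gja1 (−1.25 ± 0.28) and Clu (−1.22 ± 0.28) were lower too. Of 14 markers of the oligodendrocyte lineage 6 were lower and none higher, including Vcan (−1.42 ± 0.18) and Cspg4 (−1.26 ± 0.23) of its precursors and Mbp (−0.88 ± 0.25) of myelin. Of 14 endothelial and mural genes 3 were lower (7 called without Night Ctr0 replicate 3), the largest being Acta2 (−1.34 ± 0.30), with Pdgfrb at −0.73 ± 0.18. For these lists too the share over all genes was 22.5% called and 10.1% lower. Choroid plexus genes were lower in 3 of 10, led by Aqp1 (−2.19 ± 0.42) at no more than 2.68 CPM, and between 1 and 9 were called when 1 library was left out (9 without Day Ctr1 replicate 1). All 5 red cell genes were lower, Hba-a1 with −1.54 ± 0.44, and 2 passed without Night Ctr1 replicate 2. Hba-a1 can share reads with its copy Hba-a2. Of 7 neutrophil and monocyte genes 1, Plac8 (−1.80 ± 0.47), was lower, of 4 ependymal genes 1, Drc7, and of lymphocyte genes the 1 tested was not called.

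The largest changes among genes with an average level of at least 2 on the log2 CPM scale fell into these groups. Leaving out gene models known only by a number, of which Gm10800 rose more than any gene named here, the 10 largest rises were Lyve1, Hspa8, Zbtb16, Hsph1, Tsc22d3, Per2, Cry1, Fkbp5, Hsp90ab1 and Fmo2. Fmo2, a flavin monooxygenase and on none of the lists, ranged from 3.12 to 10.3 CPM (median 7.81) in Day and 0.92 to 7.87 CPM (median 3.29) in Night (log2 change 1.04 ± 0.36 (SE), adjusted p = 0.0487), a call lost in 12 of the 16 fits that left out 1 library and with microglia markers as the scale (0.74). The 10 largest falls were Dcx, Nr1d1, Nrsn1, Hpcal4, Luzp2, Slc6a11, Aqp4, Ctxn1, Aldoc and Zfp365. Nrsn1, Ctxn1 and Zfp365 are known from neurons, Slc6a11 encodes a GABA transporter of astrocytes, and each of these and Luzp2 was highest in Night Ctr0 replicate 4. Their log2 changes ran from −1.86 for Nrsn1 to −1.59 for Zfp365.

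**Figure D4:**
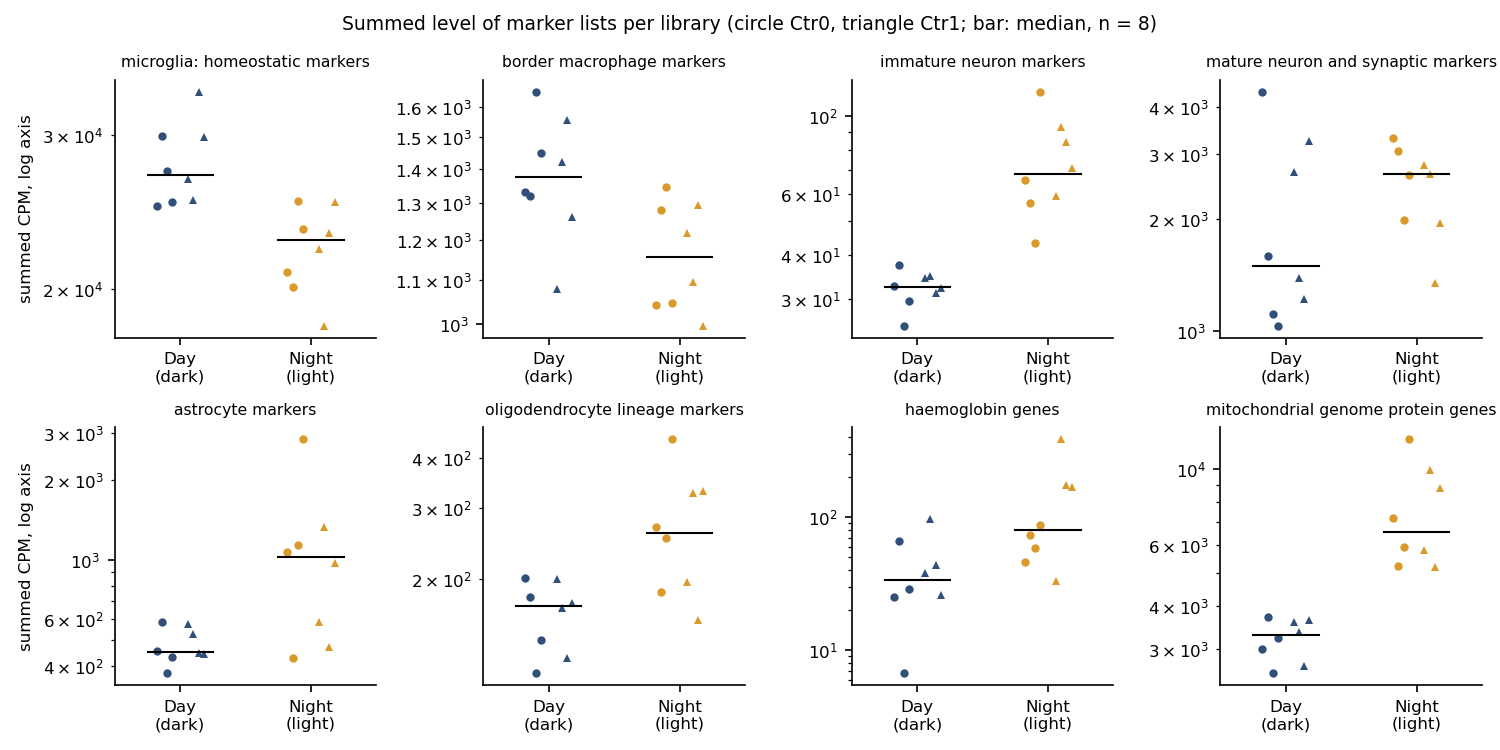
Summed levels (CPM, log axis) of marker lists in each of the 16 libraries, Day beside Night. The bar is the median of a phase, and sums of immature neuron and mitochondrial genes do not overlap between the phases, whereas those of mature neuron and border macrophage markers do.

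The other-cell markers moved with the phase, so the count of 3533 was recomputed with a marker score as a covariate. It was 872 with the astrocyte score, 2124 with the border macrophage score, 1560 with the mature neuron score and 185 with the homeostatic microglia score. With the immature neuron score, which itself did not overlap between the phases, 1 gene was called, Hspa8 (log2 change 1.53, adjusted p = 0.0357). That score and the phase share nearly the same contrast here and cannot be told apart. The summed homeostatic markers nearly separated the phases too, at 24862 to 33590 CPM in Day and 18130 to 25208 CPM in Night. The count of 185 is therefore subject to a similar limit.

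The study followed Cdr1as, a circular RNA from the Cdr1 locus, and the long noncoding RNA Cyrano (1700020I14Rik) that shares its network. Cdr1 was listed at no more than 0.232 CPM in any of the 16 libraries, and it and its host transcript C230004F18Rik did not pass the filter. A circular RNA cannot be told from a linear one in gene counts. From head-to-tail reads, the study reported Cdr1as among the highest expressed circular RNAs in microglia. It also reported Cdr1as higher in the light phase in cortical microglia. That result used another measure and more libraries, and the gene counts given here do not bear on it. 1700020I14Rik ranged from 103 to 147 CPM (median 127) in Day and 124 to 160.3 CPM (median 136) in Night, and its log2 change was −0.12 ± 0.08 (SE), adjusted p = 0.255.

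The same contrast was available in cortical microglia of the conditions labelled Soci and Cogn, 8 Day and 8 Night libraries with none in common with the controls. There 3217 of 15699 genes were called. Of the 3533 genes called in controls 3503 were measured, 3403 (97.1%) had the same sign, and 1815 were called in the same direction, which is 51.4% of the control calls and 56.4% of the others. The 4 called in opposite directions, each lower in Day in controls and higher in Soci and Cogn, were Dbp, Iigp1, Mndal and Spp1. Heat shock genes were higher in 18 of 22 (median 0.79), Hspa8 by 1.57 ± 0.15 and Hsph1 by 1.31 ± 0.13. Cry1 (1.34 ± 0.12) and Per2 (1.27 ± 0.16) were close to their control values, Lyve1 was higher by 2.35 ± 0.21, and immature neuron markers were lower in 11 of 13. Glucocorticoid-responsive genes were higher in 13 of 24 with none lower, against 8 and 3 in controls, and homeostatic microglia markers in 2 of 20, against 11. These differences between counts were not tested.

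The Day-Night change itself differed between controls and Soci and Cogn in 4 of 16238 genes (0.0246%) by edgeR, each more negative in controls. Dbp was lower in Day in controls (−0.55 ± 0.12) and higher in Day in Soci and Cogn (0.58 ± 0.11), a difference of −1.14 ± 0.17 (adjusted p = 0.00276). On the scale of that fit, control libraries held 7.72 to 13.9 CPM (median 10.4) in Day and 11.7 to 21.2 CPM (median 15.4) in Night. Soci and Cogn libraries held 9.99 to 12.1 CPM (median 11) in Day and 4.72 to 8.96 CPM (median 7.49) in Night. The Day libraries of both sets lay together, and the Night libraries did not overlap. Nr1d2 differed by −0.74 ± 0.13 (adjusted p = 0.0183), and here too Night libraries stood apart, at 46.9 to 67.3 CPM (median 54.9) in controls and 31.7 to 42.2 CPM (median 35.8) in Soci and Cogn. In Day Nr1d2 was at 43 to 73.7 CPM (median 50.1) in controls and 41.9 to 66.3 CPM (median 58.4) in Soci and Cogn. The call of Nr1d2 was lost without Day Ctr0 replicate 1 (−0.67, adjusted p = 0.0841) or Day Cogn replicate 4 (−0.67, adjusted p = 0.0812). For Nr1d1, Tef, Per3 and Hlf the change was also more negative in controls (differences of −1.19, −0.39, −0.49 and −0.55), but these differences did not pass (adjusted p = 0.652, 0.258, 0.673 and 0.795).

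The other 2 genes are induced by interferon and were named after their values were seen. Iigp1, an immunity-related GTPase, changed by −0.91 ± 0.22 in controls and 0.81 ± 0.17 in Soci and Cogn (difference −1.73 ± 0.29, adjusted p = 0.0154). Gvin1 changed by −0.24 ± 0.13 and 0.79 ± 0.13 (difference −1.05 ± 0.18, adjusted p = 0.0183). Both are low, at most 8.4 CPM for Iigp1 and 5.17 CPM for Gvin1. DESeq2 called 19 genes in this comparison, and library totals alone called none, with adjusted p-values of 0.0574 for Dbp, 0.196 for Iigp1 and 0.999 for Gvin1 and Nr1d2.

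**Figure D5:**
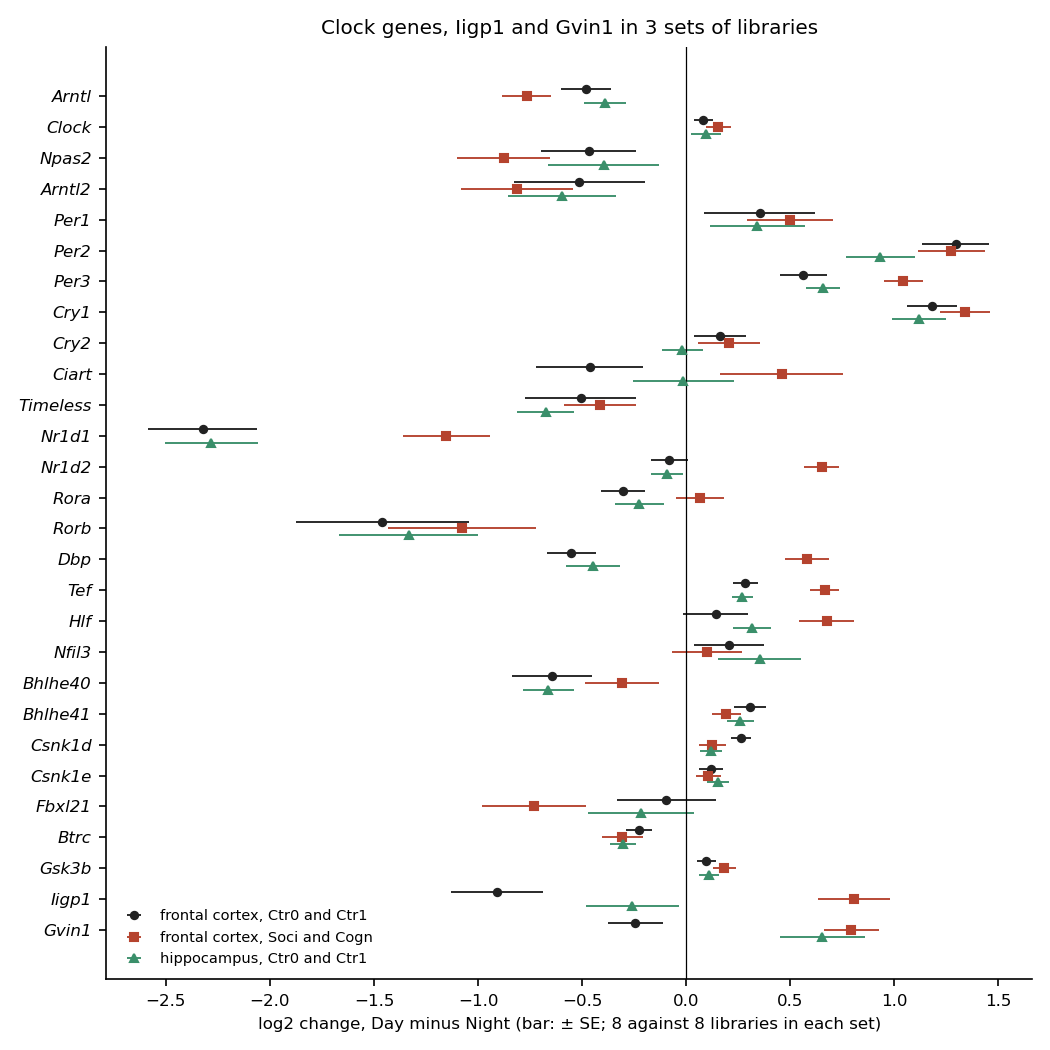
Log2 change, Day minus Night, with its SE for 26 clock genes, Iigp1 and Gvin1 in 3 sets of 16 libraries (circles, cortex controls; squares, cortex Soci and Cogn; triangles, hippocampus controls). Cry1 and Per2 lie on the same side in all 3 sets, whereas for Dbp and Nr1d2 the squares lie above zero and the circles and triangles below it.

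Hippocampal microglia of the same control conditions may come from the same animals, which was not stated. There 4394 of 16034 genes were called, 3312 of 3494 measured control calls (94.8%) had the same sign, and 2018 were called in the same direction, 57.1% of the cortical and 45.9% of the hippocampal calls, with 4 (Ap2m1, Hes6, Pbxip1 and Tsen34) in opposite directions. Nr1d1 (−2.28 ± 0.22), Cry1 (1.12 ± 0.13), Dbp (−0.45 ± 0.13), Hspa8 (1.25 ± 0.10) and Lyve1 (1.95 ± 0.18) took values near those of the cortex. Of 42 nuclear respiratory chain genes 25 were lower in Day in hippocampus and 1 in cortex, and choroid plexus genes were lower in 10 of 10 and 3 of 10. Glucocorticoid-responsive genes were higher in 4 and lower in 6 of 24 in hippocampus, against 8 and 3 in cortex. Those differences between counts were not tested. Gene by gene, the change differed between the regions in 1 of 16569 (0.00604%), Prdx5, a peroxidase gene. Prdx5 changed by 0.09 ± 0.06 in cortex and −0.42 ± 0.07 in hippocampus (difference 0.48 ± 0.08, adjusted p = 0.0461). On 1 scale its cortical libraries held 12.7 to 14.5 CPM (median 14.2) in Day and 12.2 to 15.2 CPM (median 12.7) in Night, and its hippocampal libraries 11.7 to 17.2 CPM (median 14.5) and 18 to 20.3 CPM (median 18.6). That call was lost in 25 of the 32 fits that left out 1 library. In this comparison library totals alone and the fit with a replicate block called none, and DESeq2 called 24.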

How the data were processed

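Total RNA of CD11b-selected microglia was depleted of ribosomal RNA and sequenced by the authors. Per the submitters' processing notes, reads were mapped to GRCm38.p5 with STAR 2.7.3a and assigned to genes with featureCounts of Subread 2.0.0. The values deposited by the authors are raw counts per gene, with no normalization. The strand setting and the handling of reads with several matches were not given in the sources used here. The table held 49671 genes, of which 49412 matched GENCODE M21 and 21000 had no read in the 16 libraries, which hold 10.2 to 26.3 M counts each. No libraries were identical.

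The Day and Night libraries (8 each) were compared in R 4.3.3 with edgeR 4.0.16 (filterByExpr, TMM scaling, glmQLFit and glmQLFTest, Ctr0 or Ctr1 as a term), with Benjamini-Hochberg adjustment over all genes tested and a threshold of 0.05. Levels are CPM after TMM scaling. SE is the size of the log2 change over the square root of F. Differences between sets of libraries were interaction terms. Library totals were compared by exact permutation tests over 12870 splits (scipy 1.17.1). The counting floor covers counting error only, whereas SE includes the spread between libraries. Alternatives were DESeq2 1.42.0, other scalings and filters, a replicate block, marker scores as covariates and each library left out. Scripts were tested on simulated data. Named genes were the 10 largest rises and falls with a level of at least 2 (log2 CPM), all clock genes, up to 4 members of lowest p in each of the other gene lists, up to 3 genes of lowest p and a level of at least 2 in each interaction test, and genes the study followed. List members outside this rule that are named in counts of 5 or fewer, or beside a lost call, were chosen after their values were seen. A few genes that the rule names are not reported here. The members, the 42 lists and the tests were chosen with earlier results of these data known. Promoter windows are from RefSeq (GRCm38.p6), and gene names from GENCODE M21.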

Additional observations from a re-analysis of the deposited data

Results flagged for a closer look

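In the 155 measures of this report, 310 groups of 8 libraries were examined for a single library far from the other 7, by its gap to the nearest one over the group's range. Such a gap arises by chance in about 1 of 20 groups, 15.5 of these 310, and 28 were found. Night Ctr0 replicate 4 accounted for 16 of them. Its share of mt-Rnr2 was 8.11%, and it was the highest Night library for the neuron and astrocyte transcripts Hpcal4 (153 CPM), Snap25 (20.7 CPM), Nrsn1 (75.7 CPM), Zfp365 (102 CPM), Ctxn1 (19.5 CPM), Luzp2 (69.4 CPM), Slc6a11 (36.0 CPM), Aldoc (167 CPM), Atp1b2 (48.5 CPM), Aqp4 (27.8 CPM) and Aldh1l1 (11.9 CPM). It was also highest for Rorb (23.2 CPM), Adora1 (14.4 CPM), Lss (16.4 CPM) and Mvk (10 CPM). Without it 3049 genes were called between Day and Night, against 3533 with it.

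Night Ctr1 replicate 3 stood above the other Night libraries for the glucocorticoid-responsive genes Tsc22d3 (46.6 CPM), Fkbp5 (63.8 CPM) and Sult1a1 (39.5 CPM). Single libraries stood apart for Hba-a1 (Night Ctr1 replicate 2, 80.8 CPM), B2m (Night Ctr1 replicate 4, 332 CPM), Relb (Night Ctr0 replicate 2, 13.9 CPM), Il6 (Day Ctr0 replicate 3, 5.88 CPM), Klf6 (Day Ctr1 replicate 3, 117 CPM) and Fosl2 (Day Ctr0 replicate 1, lowest, 24.2 CPM). In total counts Day Ctr0 replicate 1 (24.5 M) and Night Ctr0 replicate 2 (26.3 M) stood above their phases, and the share of Gm42418 was highest in Day Ctr1 replicate 2, at 14.5%.

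A tested difference between sets of libraries singled out 5 genes. The Day-Night change was lower in cortical controls than in Soci and Cogn for Dbp (difference −1.14), Iigp1 (−1.73), Gvin1 (−1.05) and Nr1d2 (−0.74), and higher in cortex than in hippocampus for Prdx5 (difference 0.48), by edgeR's interaction tests.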

How the results depend on the processing

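The count of 3533 genes was within 1.5 times its value with median-of-ratios size factors (3512), DESeq2 (3837), a stricter filter (3262), no filter (2796), a single spread over all cortical libraries (3352), no condition term (3665), genes over 1% of the counts removed (3421), log2 total as a covariate (2734) and each library left out (2634 to 4903, the highest without Day Ctr0 replicate 1). It was 1877 with library totals alone, 78 in Ctr0 and 618 in Ctr1 alone, 872, 2124, 185 and 1 with astrocyte, border macrophage, homeostatic microglia and immature neuron scores, and, both chosen after seeing the data, 1560 with the mature neuron score and 6242 scaled to microglia markers. Replicate numbers were not taken as pairs in the main fit. Of same-number pairs 12 of 24 correlated over 0.1, against 21 of 72 others (median r 0.111 and −0.0482). Of 16 libraries 6 correlated best with their own number. Same-number pairs thus correlated somewhat more than others, and why was not tested. As a hint from the data, the 6 pairs numbered 3 were all over 0.1 (0.195 to 0.55). The replicate block gave 4001. The Ctr0 to Ctr1 difference called 1 gene by DESeq2 and none otherwise. The difference from Soci and Cogn called 19 by DESeq2, none with library totals, and 3 to 8 with 1 library left out (7 without Day Ctr0 replicate 4 or Night Ctr1 replicate 1, 8 without Night Soci replicate 1). The difference from hippocampus called 24 by DESeq2, none with library totals, no filter or the replicate block, and 0 to 23 with 1 library left out (23 without Hippocampus Night Ctr0 replicate 4). The difference in total count was −3.55 to −0.6 M with 1 library left out. Of 134 named genes called, 134 held with DESeq2, 130 with the block, 95 with library totals, 63 with the astrocyte score, 32 with the homeostatic score, 81 with the mature neuron score, 1 with the immature neuron score and 98 scaled to microglia markers. The depth limits genes under about 1 CPM. Why these settings changed calls was not tested.

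Log2 changes that turned sign were, in Ctr0 alone, Nfil3 −0.13, and in Ctr1 alone, Fbxl21 0.50, Per1 −0.08. With the astrocyte score they were Adora1 0.02, Aldoc 0.06, Aqp4 0.01, Ctxn1 0.04, Fbxl21 0.05, Gstm1 0.07, Mbp 0.05, Per1 −0.27, Rorb 0.11, Snap25 0.03. With the homeostatic score they were Arntl2 0.14, Hlf −0.01, Timeless 0.13. With the immature neuron score they were 1700020I14Rik 0.26, Adra1a 0.46, Aqp4 0.11, Atp1b2 0.05, Bcl3 0.33, Bhlhe40 0.02, Ccnd2 0.00, Clu 0.03, Dpysl3 0.04, Fbxl21 0.40, Gja1 0.50, Gstm1 0.46, Hba-a1 0.67, Iigp1 0.11, Il6 −0.23, Irf7 0.25, Luzp2 0.15, Mbp 0.14, Mt2 0.08, Nfil3 −0.12, Oasl2 0.12, Pdk4 0.11, Per1 −0.34, Rora 0.23, Rorb 0.30, Rsad2 0.21, Slc6a11 0.16, Snap25 0.15, Stab1 −0.03, Tgfb1 −0.04, Timeless 0.64. Scaled to microglia markers they were B2m −0.07, Bst2 −0.01, Clock −0.21, Cry2 −0.14, Csnk1d −0.03, Csnk1e −0.17, Ddx3y −0.04, Gsk3b −0.20, Hlf −0.16, Irf9 −0.14, Klf6 −0.00, Maf −0.01, Nfil3 −0.08, Nfkb1 −0.12, Prdx5 −0.21, Rela −0.12, Spi1 −0.02, Stab1 −0.04, Tef −0.02, Tgfb1 −0.10.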

Other observations

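Interferon-stimulated genes are given here for both sets of cortical libraries, and the difference between these counts was not tested. Of 21 tested, 4 were higher and none lower in Day in the Soci and Cogn conditions (median 0.25), against 2 higher and 4 lower in controls (median −0.26). Mx1 changed by −0.69 ± 0.13 in controls and 0.07 ± 0.15 in Soci and Cogn, Oasl2 by −0.69 ± 0.19 and 0.19 ± 0.14, and Rsad2 by −0.83 ± 0.19 and 0.09 ± 0.22. None of these 3 differences passed the interaction test (edgeR, adjusted p = 0.422, 0.46 and 0.673). Axl, which interferon also induces, differed by −1.02 ± 0.20 (adjusted p = 0.0725).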
